A study of Mus musculus with 29 samples.

Results

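Cwc22 and the 4 core genes of the exon junction complex, Eif4a3, Magoh, Rbm8a and Casc3, were followed in nuclei of the embryonic mouse cortex under an inhibitor of histone deacetylases. The 5 genes were found by symbol among 48709 Ensembl identifiers, of which 48349 had a symbol. Cwc22 was selected on its measured RNA level, which fell under the inhibitor in both sorted populations, so its levels under inhibitor and vehicle are given here as a description without a test, while the core genes were listed for their function and were tested. All 5 genes were among the 20078 that passed the filter on low counts. The samples came from cortex at day E16.5 of gestation that received TSA (trichostatin A, a deacetylase inhibitor) or vehicle, and nuclei were sorted by flow cytometry for Tbr2, the protein of Eomes. RNA-seq covered 2 Tbr2-positive TSA, 3 Tbr2-positive vehicle, 2 Tbr2-negative TSA and 3 Tbr2-negative vehicle libraries. ChIP-seq for H3K9ac, acetylation of histone H3 at lysine 9, covered 4, 3, 4 and 4 libraries in the same order of groups. The labels give neither strain, sex, dose nor the length of exposure, and their genotype field only repeats the sorted population. They do not say whether replicates were separate embryos or litters, so p-values measure the spread between these libraries, which may be technical. The protocol field names whole tissue as the source of RNA, whereas the series names sorted nuclei. Eomes RNA stood at 391 and 462 CPM (read counts scaled to a common library total) in Tbr2-positive TSA libraries and 14.2 and 8.24 CPM in Tbr2-negative TSA libraries, and at 371 to 548 CPM in Tbr2-positive vehicle libraries against 13.9 to 22 CPM in Tbr2-negative vehicle libraries, so the RNA libraries carry the sort.

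The exon junction complex is a clamp that the spliceosome leaves on an mRNA just upstream of each newly made junction. Its core is the RNA helicase eIF4A3, locked onto RNA by the pair of MAGOH and Y14 (the product of Rbm8a), with CASC3 (also known as BTZ or MLN51) bound on the outside. CWC22 is a spliceosome protein that binds eIF4A3 and brings it to the splicing machinery, and it is also needed for splicing itself. The bound complex helps mRNA export and marks transcripts with premature stop codons for nonsense-mediated decay. In mice, losing 1 copy of Magoh, Rbm8a or Eif4a3 in the developing cortex causes a small brain, and Magoh haploinsufficiency lowers the number of Tbr2-positive intermediate progenitors. The genomic segment that carries Cwc22 is known to differ in copy number between mouse strains. Copy number was not measured in these libraries.

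The stretches directly upstream of the transcription start are shown because H3K9ac peaks sat at the starts of these genes, and because they differ in the short motifs they hold. The sequences are from RefSeq (GRCm38.p6), 250 bases each, and 3 of the 5 genes had an entry. Capitals mark matches to 6 motifs searched on both strands: ACTACAA, the core recognised by ZNF143 and THAP11, its longer form, in which the core is followed after 3 free bases by CC, the GC box GGGCGG, the CCAAT box CCAAT, the ETS core CCGGAAG, and the cyclic AMP response element TGACGTCA.
Cwc22: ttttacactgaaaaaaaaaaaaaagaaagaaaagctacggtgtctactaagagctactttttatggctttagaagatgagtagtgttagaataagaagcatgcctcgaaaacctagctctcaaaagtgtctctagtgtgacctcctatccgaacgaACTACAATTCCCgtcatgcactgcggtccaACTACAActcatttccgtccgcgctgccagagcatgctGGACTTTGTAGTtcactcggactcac
Eif4a3: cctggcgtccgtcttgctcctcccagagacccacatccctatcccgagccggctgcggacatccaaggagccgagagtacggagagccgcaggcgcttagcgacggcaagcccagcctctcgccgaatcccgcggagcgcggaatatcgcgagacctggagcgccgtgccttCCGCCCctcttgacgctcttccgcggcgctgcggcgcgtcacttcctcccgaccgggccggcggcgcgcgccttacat
Magoh: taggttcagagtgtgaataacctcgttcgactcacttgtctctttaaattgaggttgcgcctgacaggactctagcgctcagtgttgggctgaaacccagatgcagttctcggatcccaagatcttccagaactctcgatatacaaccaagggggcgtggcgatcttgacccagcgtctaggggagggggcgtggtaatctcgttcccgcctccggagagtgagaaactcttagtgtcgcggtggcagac
The Cwc22 stretch lies at chr2:77946357-77946606 on the minus strand, the Eif4a3 stretch at chr11:119300044-119300293 on the minus strand and the Magoh stretch at chr4:107879505-107879754 on the plus strand. Upstream of Cwc22 the core ACTACAA occurred 3 times, at bases 94 to 88 and 64 to 58 before the start on the gene's strand and at bases 21 to 15 on the opposite strand. The first and the last of these were also matches to the longer form. At least 1 core was found in 2.81% of 32841 promoters searched, and 0.158% held 2 or more. The longer form was found in 1.19% of promoters, and 29 promoters (0.0883%) held 2 or more of it. Eif4a3 had a single GC box, a motif found in 32.7% of promoters, and Magoh had no match to any of the 6. The other shares were 33.9% for CCAAT, 6.91% for CCGGAAG and 1.55% for TGACGTCA. The Cwc22 stretch was 42.8% G and C with 10 CpG sites, the Eif4a3 stretch 70% with 36 and the Magoh stretch 54% with 15, where the median promoter had 52.4% and 6.

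The RNA libraries held 18567111 to 26282652 counts on genes, with 22121 to 23924 genes detected, and Cwc22 itself had 2102 to 9820 counts per library. The H3K9ac libraries had 15174087 to 30269814 ChIP tags. Peaks numbered 31823 to 40053 in the Tbr2-positive TSA libraries, 61487 to 82164 in the Tbr2-positive vehicle libraries, 47835 to 78929 in the Tbr2-negative TSA libraries and 56403 to 78773 in the Tbr2-negative vehicle libraries. H3K9ac library 1 of the TSA group stood apart in both populations at the Cwc22 locus, as described with the peaks, so the H3K9ac values of Cwc22 are given with and without those libraries. Fewer cells of a type and less RNA per cell cannot be told apart in these bulk libraries.

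Cwc22 RNA (ENSMUSG00000027014; GRCm38.p6 chr2:77881159-77946356, minus strand) was low in every TSA library and high in every vehicle library. It stood at 89.2 and 120 CPM in the Tbr2-positive TSA libraries, against 321, 405 and 278 CPM in the Tbr2-positive vehicle libraries. In the Tbr2-negative nuclei it stood at 90.2 and 95.3 CPM with TSA, against 253, 347 and 238 CPM with vehicle. The highest TSA library of either population was thus below the lowest vehicle library of either population. These levels averaged 105 ± 21.9 CPM (SD, n = 2) with TSA and 335 ± 64.6 CPM (n = 3) with vehicle in Tbr2-positive nuclei, a log2 fold change of -1.68, or 3.2-fold lower. In Tbr2-negative nuclei they averaged 92.8 ± 3.67 CPM (n = 2) with TSA and 280 ± 58.8 CPM (n = 3) with vehicle, a log2 fold change of -1.59, or 3.01-fold lower. The change in Tbr2-positive nuclei minus that in Tbr2-negative nuclei was -0.09 on the log2 scale. The choice of Cwc22 rested on these values, so no p-value is attached to them.

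**Figure D1:**
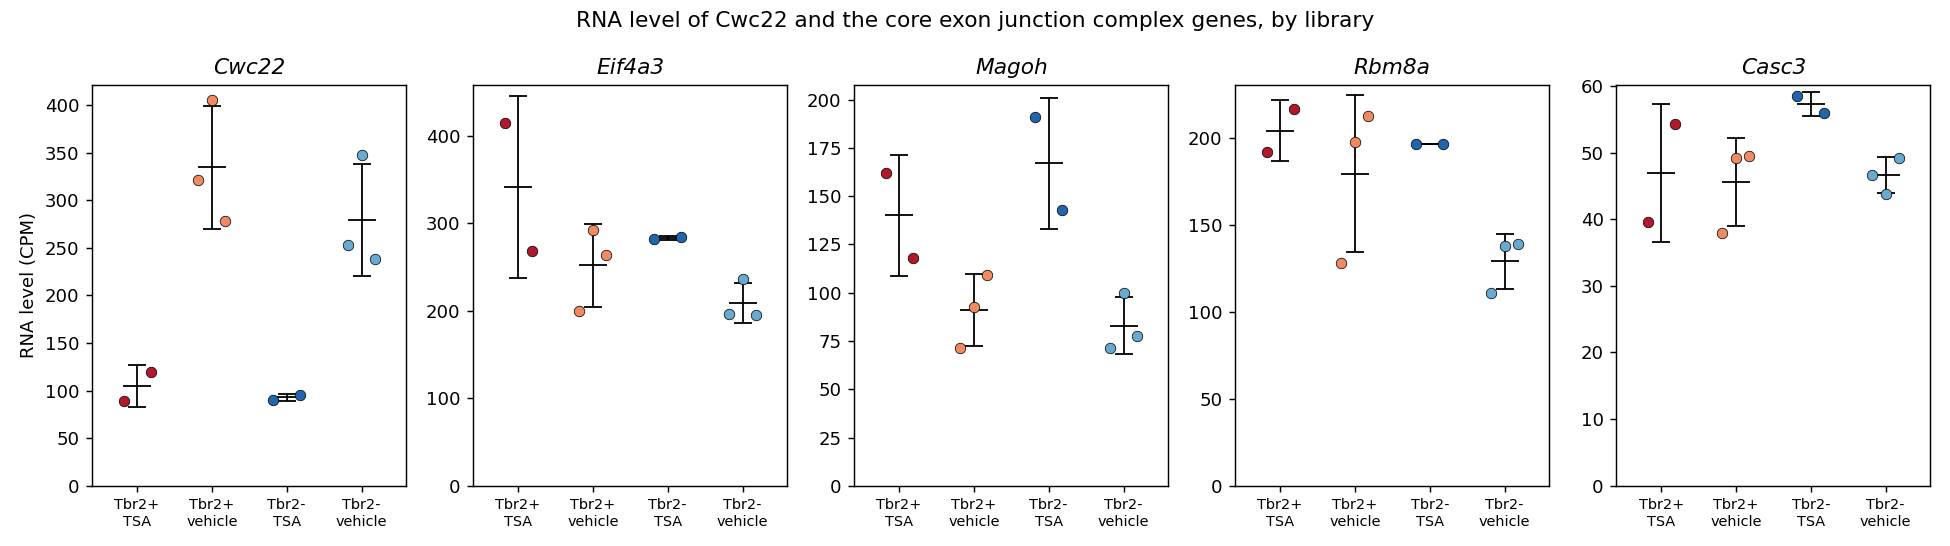
RNA level (CPM, linear axis from 0) of each gene by library; columns run Tbr2-positive TSA, Tbr2-positive vehicle, Tbr2-negative TSA, Tbr2-negative vehicle, points are libraries, and bars give the mean and SD of the 2 or 3 libraries. Cwc22 sits at 89.2 to 120 CPM in the TSA libraries and 238 to 405 CPM in the vehicle libraries, and each Magoh TSA library lies above every vehicle library of its population.

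Ordered by level, the groups ran from Tbr2-negative TSA through Tbr2-positive TSA and Tbr2-negative vehicle to Tbr2-positive vehicle. The first neighbours in that order overlapped, and Cwc22 did not pass between Tbr2-positive and Tbr2-negative nuclei with TSA (log2 fold change 0.17 ± 0.23 SE, 95% interval -0.32 to 0.67; edgeR adjusted p = 0.729). The last neighbours overlapped as well, and Cwc22 did not pass between Tbr2-positive and Tbr2-negative nuclei with vehicle (0.26 ± 0.19, interval -0.15 to 0.66; edgeR adjusted p = 0.373). Over all genes 9.32% passed in the comparison with TSA (4.19% as higher and 5.13% as lower in Tbr2-positive nuclei) and 21.4% in the comparison with vehicle (9.96% as higher and 11.5% as lower). A marker of the sort behaved otherwise: Eomes was higher in Tbr2-positive vehicle nuclei by a log2 fold change of 4.62 ± 0.26 (edgeR adjusted p = 1.05e-06).

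Other contents of the RNA libraries are given here beside Cwc22. The summed level of the ribosomal protein genes was 16985 and 14801 CPM in the Tbr2-positive TSA libraries against 7286 to 10779 CPM in the vehicle ones, and 19716 and 15422 CPM against 8462 to 12214 CPM in the Tbr2-negative nuclei. Of 82 ribosomal protein genes tested, 0 passed in Tbr2-positive nuclei, with a median log2 fold change of 0.82 beside -0.04 over all genes, of which 0% passed, and 23 rose in Tbr2-negative nuclei, with a median of 0.83 beside -0.08, where 0.817% of all genes passed as higher. DESeq2 called 57 (Tbr2-positive) and 68 (Tbr2-negative) of them as higher, and edgeR without the filter on low counts 47 and 55. The Tbr2-negative count was 0 without any one of 5 libraries, Tbr2-negative TSA library 1 or 2, Tbr2-negative vehicle library 1 or 3, or Tbr2-positive vehicle library 2. The Tbr2-positive count was 2 without Tbr2-positive TSA library 2. The summed level of the nuclear long noncoding RNAs was 6132 and 12286 CPM in Tbr2-positive TSA libraries against 10657 to 14890 CPM in the vehicle ones, which overlapped, and 6079 and 8390 CPM against 9604 to 14232 CPM in the Tbr2-negative nuclei, which did not. The 10 listed had medians of -0.66 (Tbr2-positive) and -0.99 (Tbr2-negative), and 0 passed in either (5 and 6 at an unadjusted p below 0.05; DESeq2 called 0 and 3). Those with the smallest p were Snhg11 (-1.19 ± 0.39; edgeR adjusted p = 0.17) and Gm26917 (-1.14 ± 0.43; edgeR adjusted p = 0.225) in Tbr2-positive nuclei, and Miat (-1.73 ± 0.39; edgeR adjusted p = 0.0517) and Gm26917 (-1.97 ± 0.45; edgeR adjusted p = 0.0541) in Tbr2-negative nuclei. The 15 mitochondrially encoded genes tested had medians of 0.78 and 1.13, with 0 and 1 passing as higher (2 and 2 with DESeq2). Basal progenitor markers (5 of 5 measured) summed to 1354 to 1572 CPM in Tbr2-positive TSA libraries and 1364 to 1912 CPM in Tbr2-positive vehicle libraries. Cortical glutamatergic neuron markers (6 of 6) summed to 2754 to 2782 CPM with TSA against 1643 to 2508 CPM with vehicle in Tbr2-positive nuclei, and oligodendrocyte precursor markers (5 of 5) there to 18.3 to 20.2 CPM against 6.82 to 12.9 CPM. In Tbr2-negative nuclei, interneuron markers (6 of 6) summed to 791 to 840 CPM with TSA against 458 to 532 CPM with vehicle, radial glia markers (6 of 6) to 935 to 999 against 751 to 778 CPM, oligodendrocyte precursor markers (5 of 5) to 65.6 to 66.3 against 38.8 to 55.7 CPM, and vascular and meningeal markers (5 of 5) to 13.8 to 16.3 against 20.7 to 38.6 CPM. The other sets overlapped between TSA and vehicle. In Tbr2-positive nuclei these were the basal progenitor, radial glia, interneuron, microglia, vascular and meningeal, and erythroid markers. In Tbr2-negative nuclei they were the basal progenitor, glutamatergic neuron, microglia and erythroid markers. Sums over groups of 2 and 3 libraries can separate by chance. No marker was at 0 throughout a group. The part of these levels in the RNA results was not tested.

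Among the core genes, Magoh rose with TSA in Tbr2-negative nuclei, and no other core gene passed with edgeR in either population. Magoh (ENSMUSG00000028609; chr4:107879755-107887424), the partner of Y14 in the clamp, stood at 191 and 143 CPM in Tbr2-negative TSA libraries, against 71.5, 99.6 and 77.4 CPM in the vehicle libraries. Both TSA values were above every vehicle value. Groups of 2 and 3 libraries can separate by chance, and the share of all genes that did is not given here. The means were 167 ± 34.1 CPM (SD, n = 2) with TSA and 82.8 ± 14.8 CPM (n = 3) with vehicle, a log2 fold change of 1.01 ± 0.22 SE (2.01-fold, 95% interval 0.53 to 1.49; edgeR adjusted p = 0.0488). Of all genes, 1.18% passed in this comparison, 0.817% as higher and 0.359% as lower. The call lay close to the threshold, and it ended without Tbr2-negative TSA library 1 (log2 fold change 0.80; edgeR adjusted p = 0.516) or 2 (1.20; 0.0558), without Tbr2-negative vehicle library 1 (0.91; 0.178) or 3 (0.96; 0.14), and without Tbr2-positive vehicle library 2 (1.01; 0.0791). It also ended with RLE scaling in place of TMM (1.01; edgeR adjusted p = 0.0512). In Tbr2-positive nuclei Magoh stood at 162 and 118 CPM with TSA, against 71.5, 92.4 and 109 CPM with vehicle. These values did not overlap either, and the log2 fold change of 0.62 ± 0.22 did not pass (edgeR adjusted p = 0.198). In this population 0 of 20078 genes passed (0%), while 3175 had an unadjusted p below 0.05 and DESeq2 called 1015. Magoh's effect did not pass as different between the populations (-0.39 ± 0.32, Tbr2-positive minus Tbr2-negative; edgeR adjusted p = 0.942), nor did any gene (0%, with 1103 at an unadjusted p below 0.05 and 11 by DESeq2).

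Eif4a3 (ENSMUSG00000025580; chr11:119288363-119300043), the helicase that CWC22 binds, stood at 415 and 268 CPM in Tbr2-positive TSA libraries, against 200, 293 and 264 CPM in Tbr2-positive vehicle libraries. In Tbr2-negative nuclei it stood at 282 and 285 CPM with TSA, against 196, 236 and 195 CPM with vehicle. The groups overlapped in Tbr2-positive nuclei and not in Tbr2-negative nuclei, a description with the limit named for Magoh. The log2 fold change was 0.44 ± 0.21 in Tbr2-positive (edgeR adjusted p = 0.325) and 0.44 ± 0.21 in Tbr2-negative nuclei (edgeR adjusted p = 0.259), and neither passed.

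Rbm8a (ENSMUSG00000038374; chr3:96629928-96633791), which encodes Y14, stood at 192 and 217 CPM in Tbr2-positive TSA libraries, against 128, 198 and 213 CPM with vehicle. In Tbr2-negative nuclei it stood at 197 and 197 CPM with TSA, against 111, 138 and 139 CPM with vehicle. As for Eif4a3, the groups overlapped only in the Tbr2-positive nuclei, with the same limit. The log2 fold change was 0.19 ± 0.20 in Tbr2-positive nuclei (edgeR adjusted p = 0.702) and 0.61 ± 0.20 in Tbr2-negative nuclei (edgeR adjusted p = 0.115). DESeq2 called Rbm8a in Tbr2-negative nuclei (0.61; DESeq2 adjusted p = 0.0412).

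Casc3 (ENSMUSG00000078676; chr11:98809808-98833807), the outer subunit, which binds the helicase and RNA, stood at 39.6 and 54.3 CPM in Tbr2-positive TSA libraries, against 37.9, 49.2 and 49.5 CPM with vehicle. In Tbr2-negative nuclei it stood at 58.5 and 56 CPM with TSA, against 46.7, 43.8 and 49.2 CPM with vehicle. The log2 fold change was 0.04 ± 0.19 in Tbr2-positive (95% interval -0.37 to 0.45; edgeR adjusted p = 0.944) and 0.30 ± 0.19 in Tbr2-negative nuclei (interval -0.11 to 0.71; edgeR adjusted p = 0.403). The TSA effects of Eif4a3, Rbm8a and Casc3 did not pass as different between populations (edgeR adjusted p = 1, 0.915 and 0.96). Over the core genes the median log2 fold change with TSA was 0.31 (Tbr2-positive) and 0.52 (Tbr2-negative), beside -0.04 and -0.08 over all genes. Across the 10 libraries the log2 levels of Cwc22 correlated with those of Magoh at r = -0.824, Eif4a3 at -0.579, Rbm8a at -0.492 and Casc3 at -0.406, a description over libraries that share the TSA and vehicle groups.

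Magoh and Rbm8a have near copies, between which reads can be split, so their counts are less certain. Magohb, which encodes a protein almost identical to MAGOH, stood at 45.9 and 46.3 CPM in Tbr2-positive TSA libraries, against 24.4, 31.6 and 29 CPM with vehicle. In Tbr2-negative nuclei it stood at 55.4 and 51.9 CPM with TSA, against 29.1, 41.2 and 25.9 CPM with vehicle. Its log2 fold changes of 0.70 ± 0.21 (Tbr2-positive; edgeR adjusted p = 0.146) and 0.74 ± 0.21 (Tbr2-negative; 0.0813) had the sign of Magoh's and did not pass. Eif4a1, a translation initiation helicase related to Eif4a3, had 0.53 ± 0.19 (Tbr2-positive; edgeR adjusted p = 0.202) and 0.66 ± 0.19 (Tbr2-negative; 0.0811). Eif4a2, another initiation helicase of this family, had 0.01 ± 0.15 (edgeR adjusted p = 0.987) and 0.30 ± 0.15 (0.279). DESeq2 called 1 of these 3 relatives of core genes as higher with TSA among Tbr2-positive nuclei and 2 among Tbr2-negative ones. Rbm8a2, a retro-copy of Rbm8a, was below the filter.

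Between the sorted populations none of the core genes passed. With vehicle, Rbm8a was nearest to the threshold, at 180 ± 45.2 CPM in Tbr2-positive and 129 ± 15.7 CPM in Tbr2-negative libraries (SD, n = 3 each; log2 fold change 0.48 ± 0.18, 95% interval 0.09 to 0.87; edgeR adjusted p = 0.0811). Rbm8a passed without Tbr2-positive vehicle library 1 (0.69; edgeR adjusted p = 0.00943). It also passed with DESeq2 (0.49; DESeq2 adjusted p = 0.04) and without the filter on low counts (0.51; edgeR adjusted p = 0.0412). Eif4a3 had 0.27 ± 0.19 (interval -0.13 to 0.67), Magoh 0.14 ± 0.20 (-0.30 to 0.57) and Casc3 -0.03 ± 0.17 (-0.40 to 0.34), with edgeR adjusted p of 0.345, 0.696 and 0.924. With TSA the log2 fold changes between Tbr2-positive and Tbr2-negative nuclei lay between -0.29 for Casc3 and 0.27 for Eif4a3 (edgeR adjusted p = 0.46 and 0.537).

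With TSA, 3 genes of the lists that work with Cwc22 and the complex passed in Tbr2-negative nuclei, where 0.817% of all genes passed as higher, and 0 in Tbr2-positive nuclei, where 0% of all genes passed. Of 32 spliceosome proteins tested that accompany CWC22 in the activated spliceosome, 0 passed in Tbr2-positive and 1 rose in Tbr2-negative nuclei, with median log2 fold changes of 0.07 and 0.20. That gene was Cwc15, a subunit of the complex around PRPF19, which averaged 146 CPM with TSA and 65.2 CPM with vehicle in Tbr2-negative nuclei (1.16 ± 0.23; edgeR adjusted p = 0.0482). In Tbr2-positive nuclei Cwc15 had 0.92 ± 0.23 (edgeR adjusted p = 0.102) and Bud31, another splicing factor, 0.58 ± 0.21 (0.205). Among the 6 peripheral factors (subunits of ASAP and PSAP, Srrm1 and Pym1), Sap18 rose in Tbr2-negative nuclei, averaging 109 CPM with TSA and 67.4 CPM with vehicle (0.69 ± 0.15; edgeR adjusted p = 0.0492). In Tbr2-positive nuclei 0 of the 6 passed, and Pnn, which encodes pinin, the PSAP subunit, had -0.86 ± 0.26 (edgeR adjusted p = 0.148) and Sap18 0.30 ± 0.15 (0.359). Of 14 mRNA export genes, Thoc7, a THO subunit, rose in Tbr2-negative nuclei (114 CPM with TSA and 66.3 CPM with vehicle; 0.78 ± 0.17; edgeR adjusted p = 0.0492), and 0 passed in Tbr2-positive nuclei, where Nxt1 had 0.65 ± 0.18 (0.118) and Sarnp 0.69 ± 0.23 (0.179). No gene of any kind passed in Tbr2-negative nuclei once any of the 5 libraries named for Magoh was left out (0 called each), and Sap18 and Thoc7 also did not pass with RLE scaling or without Tbr2-positive vehicle library 3, nor Thoc7 without Tbr2-positive TSA library 2. In Tbr2-positive nuclei 4 of the 32 partners, 1 of the 6 peripheral factors and 6 of the 14 export genes had an unadjusted p below 0.05, and DESeq2 called 1 partner and 1 export gene as higher and 1 peripheral factor as lower. In Tbr2-negative nuclei 10 partners, 3 peripheral factors and 7 export genes had an unadjusted p below 0.05, and DESeq2 called 4 partners as higher and 1 as lower, 1 peripheral factor as higher and 2 export genes as higher. Without the filter on low counts edgeR called 3 partners and 2 export genes as higher there.

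No gene of the decay pathway that reads the complex passed with TSA. Of 12 nonsense-mediated decay factors 0 passed in either population, with medians of -0.23 (Tbr2-positive) and -0.05 (Tbr2-negative). Upf1, the central decay helicase, had -0.85 ± 0.30 in Tbr2-positive nuclei (edgeR adjusted p = 0.19), at 12 CPM with TSA and 21.7 CPM with vehicle. Smg5, an adaptor for RNA decay, had -0.39 ± 0.22 there (edgeR adjusted p = 0.401) and -0.68 ± 0.22 in Tbr2-negative nuclei (0.107), where the kinase cofactor Smg9 had -0.80 ± 0.24 (0.087). Of 10 transcripts known as natural targets of this decay, 0 passed with TSA, with medians of 0.17 and 0.13. Smg5 and Upf3b are in this list and in that of the decay factors, so the counts of these lists are not separate. Atf4, a stress-response factor, had 0.37 ± 0.16 in Tbr2-positive (edgeR adjusted p = 0.27) and 0.34 ± 0.16 in Tbr2-negative nuclei (0.243). Targets of p53, which is activated when core genes lose a copy in mouse cortex, were listed for that reason. Of 12 such genes 0 passed, with medians of 0.14 and 0.44, and the cell cycle inhibitor Cdkn1a had 0.75 ± 0.26 in Tbr2-positive (edgeR adjusted p = 0.183) and 0.94 ± 0.26 in Tbr2-negative nuclei (0.0717). Mdm2, which degrades p53, had -0.22 ± 0.16 in Tbr2-positive nuclei (edgeR adjusted p = 0.543) and Trp53inp1, a stress-induced p53 partner, 0.58 ± 0.19 in Tbr2-negative nuclei (0.116). At an unadjusted p below 0.05 stood 1 decay factor, 1 decay target and 1 p53 target in Tbr2-positive nuclei, of which DESeq2 called 0, and 4, 2 and 2 in Tbr2-negative nuclei, where DESeq2 called 2 decay factors and 1 decay target as lower and 2 p53 targets as higher.

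**Figure D2:**
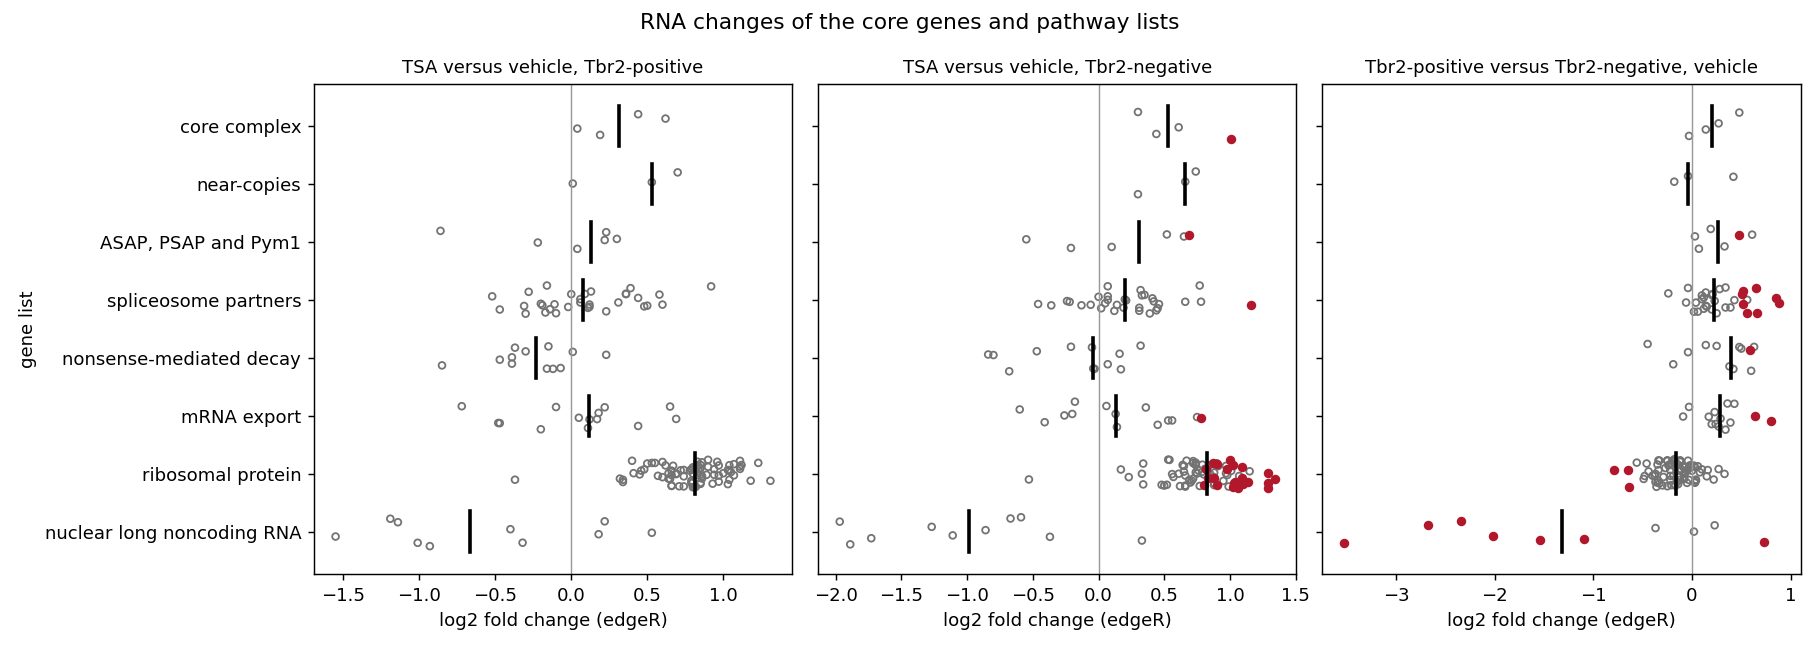
edgeR log2 fold change of each gene (horizontal axis) in 8 gene lists (rows) for TSA over vehicle in Tbr2-positive nuclei, TSA over vehicle in Tbr2-negative nuclei, and Tbr2-positive over Tbr2-negative nuclei with vehicle; filled red points passed at an adjusted p below 0.05, open points did not, and black bars are list medians, with each panel on its own scale and Cwc22 left out. The spliceosome partners have medians of 0.07 and 0.20 with TSA and 0.22 between populations, where 8 passed as higher.

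Between the populations with vehicle, 9.96% of all genes passed as higher in Tbr2-positive nuclei. Of the 32 spliceosome partners 8 were higher and 0 lower, and the list's median log2 fold change was 0.22 beside -0.05 over all genes. Crnkl1, a scaffold of the catalytic spliceosome, averaged 93.6 CPM in Tbr2-positive and 50.7 CPM in Tbr2-negative vehicle nuclei (0.88 ± 0.16; edgeR adjusted p = 0.00158). The second-step splicing factors Slu7 (0.66 ± 0.16; edgeR adjusted p = 0.0114) and Prpf18 (0.56 ± 0.15; 0.0151), and Snw1 (0.65 ± 0.16; 0.0123), were higher as well. The count was 5 without Tbr2-positive vehicle library 2, 5 without Tbr2-negative vehicle library 1 and 1 without Tbr2-negative vehicle library 3. Srrm1 (0.48 ± 0.14; edgeR adjusted p = 0.0246) was the 1 of 6 peripheral factors, Upf3b (0.59 ± 0.15; 0.0113), which links the complex to the decay machinery, the 1 of 12 decay factors, and Thoc2 (0.80 ± 0.16; 0.00366) and Thoc7 (0.64 ± 0.16; 0.011) the 2 of 14 export genes that were higher. These counts, of 1 or 2 genes each, are near the share over all genes. The Srrm1 call ended without Tbr2-positive vehicle library 3 and without Tbr2-negative vehicle library 2 or 3. Among the decay targets Gadd45a (1.67 ± 0.38; edgeR adjusted p = 0.00732), Upf3b and Ddit3 (0.84 ± 0.22; 0.0157) were higher. Among p53 targets Trp53inp1 (1.93 ± 0.18; edgeR adjusted p = 1.67e-05) and Mdm2 (0.69 ± 0.14; 0.00383) were higher, and Plk2 (-1.79 ± 0.25; 0.000275) and Bbc3 (-0.79 ± 0.23; 0.0269) lower; 1 of the 12 was lower without Tbr2-positive vehicle library 3 or Tbr2-negative vehicle library 3.

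H3K9ac was present at the gene ends of all 5 genes in 15 of 15 libraries, counting any peak within 1 kb of either end, so peak presence did not differ in any comparison (Fisher's exact test, p = 1). The share of all genes with such a peak was not counted, so this presence is a description and not a trait of these genes. Peak strength was compared as the percentile rank of the strongest gene-end peak among all peaks of its own library, by the −log10 q-value that the authors' peak caller gave. Of 20 comparisons of this rank, 0 passed after adjustment (exact two-sided permutation tests, smallest adjusted p = 0.286), and the smallest p the design allows is 0.0571 for 4 against 3 libraries and 0.0286 for 4 against 4. Adjusted over 20 comparisons, the smallest p that can be reached is 0.0571, so no comparison could pass and the adjusted p-values say nothing about whether ranks differed. A single comparison had an unadjusted p below 0.05. The number of bases covered by peaks could not pass after adjustment for the same reason, and its smallest unadjusted p was 0.0857 (exact two-sided permutation test).

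At Cwc22 the strongest peak sat at the transcription start. It ranked at the 100th percentile in Tbr2-positive TSA library 1, where it was number 2 from the top of the whole list, and at 74.44, 74.34 and 86.24 in the other Tbr2-positive TSA libraries, against 96.34, 98.94 and 98.67 in the vehicle libraries. In Tbr2-negative nuclei it ranked at the 100th percentile in TSA library 1, number 1 of the list, and at 90.42, 89.74 and 81.32 in the other TSA libraries, against 97.1, 97.69, 94.03 and 96.37 in the vehicle libraries. Percentiles come from lists of different lengths, so the position from the top is given beside them. It was 10237, 8561 and 4379 in Tbr2-positive TSA libraries 2 to 4, against 3006, 652 and 847 with vehicle, and 7565, 6709 and 8936 in Tbr2-negative TSA libraries 2 to 4, against 1760, 1818, 4136 and 2050 with vehicle. Apart from library 1, every TSA library was thus below every vehicle library of its population on either scale. With all libraries the mean rank differed by -14.2 points, TSA minus vehicle, in Tbr2-positive (exact two-sided permutation p = 0.229, adjusted 0.457) and by -5.93 points in Tbr2-negative nuclei (exact two-sided permutation p = 0.171, adjusted 0.429). Without TSA library 1 of both populations, a choice made after seeing the data, the differences were -19.6 points (exact two-sided permutation p = 0.1) and -9.14 points (p = 0.0571), each the smallest p those numbers of libraries allow. The −log10 q-values were 132, 17.6, 19.2 and 30.4 with TSA against 46.5, 73.2 and 69.1 with vehicle in Tbr2-positive nuclei, and 211, 33.6, 36.8 and 21.6 with TSA against 57.3, 58.4, 52.8 and 56.2 with vehicle in Tbr2-negative nuclei.

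**Figure D3:**
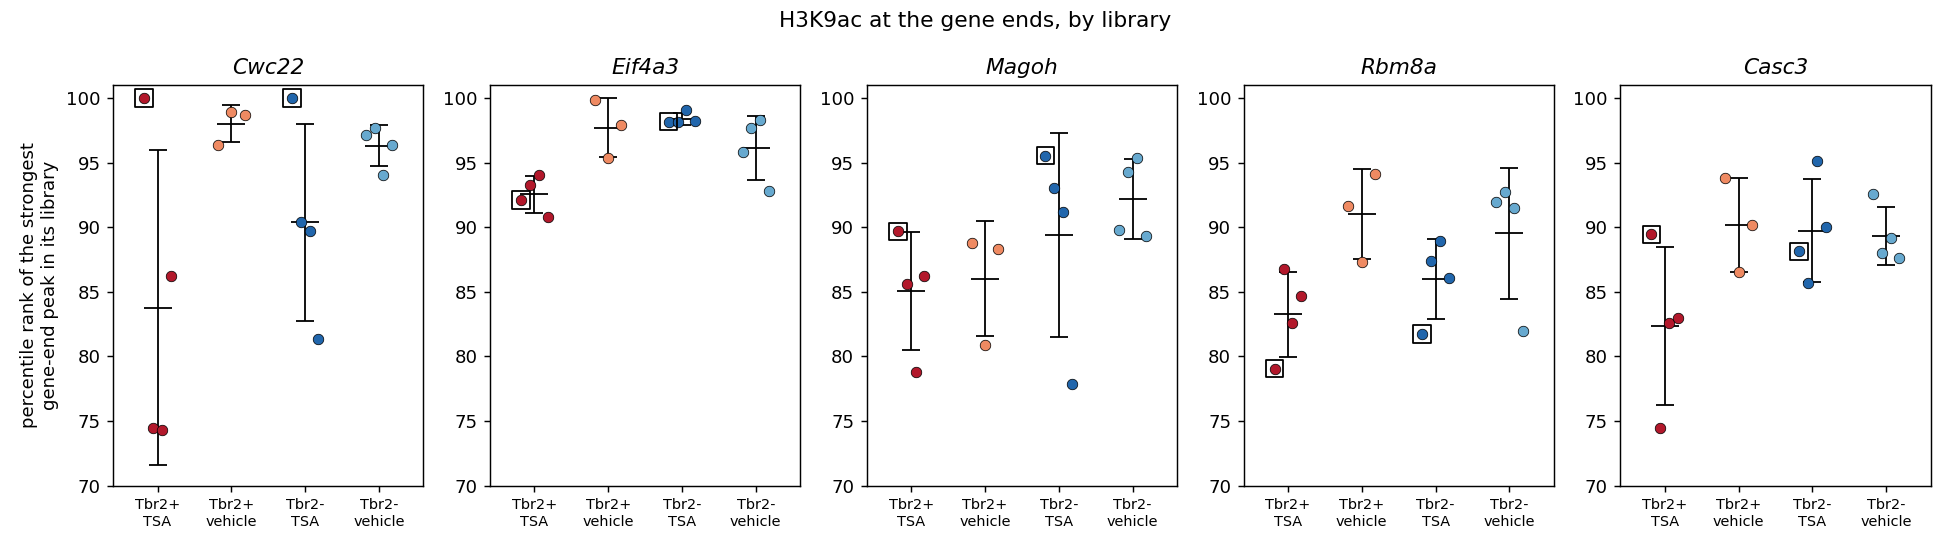
Percentile rank of the strongest gene-end H3K9ac peak within its own library (vertical axis, cut at 70) for each gene; columns run Tbr2-positive TSA, Tbr2-positive vehicle, Tbr2-negative TSA, Tbr2-negative vehicle, points are libraries, bars give mean and SD, and squares mark TSA library 1. At Cwc22 the squared points lie at the 100th percentile and the other TSA points between 74.34 and 90.42, below the vehicle points at 94.03 to 98.94.

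The other gene ends ranked between percentiles 74.44 and 99.85 among all peaks of their libraries. The ranks of gene ends over other genes were not computed. At Eif4a3 the peak ranked at 92.09, 93.28, 94.07 and 90.77 in Tbr2-positive TSA libraries, against 99.85, 95.34 and 97.93 with vehicle, a difference of -5.15 points (exact two-sided permutation p = 0.0571, adjusted 0.286). The percentiles did not overlap, but the positions from the top did, at 2694, 2691, 1978 and 2937 with TSA against 122, 2865 and 1318 with vehicle. In Tbr2-negative nuclei it ranked at 98.16, 98.13, 99.09 and 98.21 with TSA, against 95.84, 97.69, 98.3 and 92.79 with vehicle, a difference of 2.24 points (exact two-sided permutation p = 0.114, adjusted 0.327). With TSA the Eif4a3 percentile was thus lower in every Tbr2-positive than in every Tbr2-negative library, by -5.84 points (exact two-sided permutation p = 0.0286, adjusted 0.286), and its positions from the top, 1978 to 2937 in Tbr2-positive and 594 to 1474 in Tbr2-negative libraries, did not overlap either. At Rbm8a the ranks were 79.07, 86.74, 82.59 and 84.64 in Tbr2-positive TSA libraries, against 91.63, 87.28 and 94.12 with vehicle, a difference of -7.75 points (exact two-sided permutation p = 0.0571, adjusted 0.286). There too the percentiles did not overlap while the positions from the top did, at 7128, 5312, 5809 and 4888 with TSA against 6878, 7820 and 3735 with vehicle. At Magoh, whose RNA rose in Tbr2-negative nuclei, the ranks there were 95.54, 93.04, 91.19 and 77.89 with TSA, against 89.75, 94.29, 95.36 and 89.28 with vehicle, which overlapped (exact two-sided permutation p = 0.743). With vehicle, the Magoh percentile of every Tbr2-positive library was below that of every Tbr2-negative library. The difference was -6.15 points (exact two-sided permutation p = 0.0571, adjusted 0.286). Casc3 differed by -7.82 points with TSA in Tbr2-positive nuclei (exact two-sided permutation p = 0.114, adjusted 0.327) and by 0.39 points in Tbr2-negative nuclei, and the groups overlapped in both populations. The Tbr2-positive TSA libraries had the fewest peaks of the 4 groups, and the part of that in their ranks was not tested.

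Inside the Cwc22 gene, H3K9ac peaks were found across the whole body in TSA library 1 of both populations. Between the gene-end windows there were 39 peaks covering 21.9% of the bases in Tbr2-positive TSA library 1 and 53 peaks covering 28.8% in Tbr2-negative TSA library 1, against 0 to 3 peaks in the other 13 libraries. Among 10039 protein-coding genes of 20 kb or longer counted the same way, Cwc22 was the 1 gene with at least 8 body peaks in both of these libraries and over 3 times the number in any other library. These libraries were picked for their peaks at Cwc22, so Cwc22 was bound to meet this rule. The count says only that no other gene met it. The bodies of Eif4a3, Magoh, Rbm8a and Casc3 held 0 to 2 peaks in every library.

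**Figure D4:**
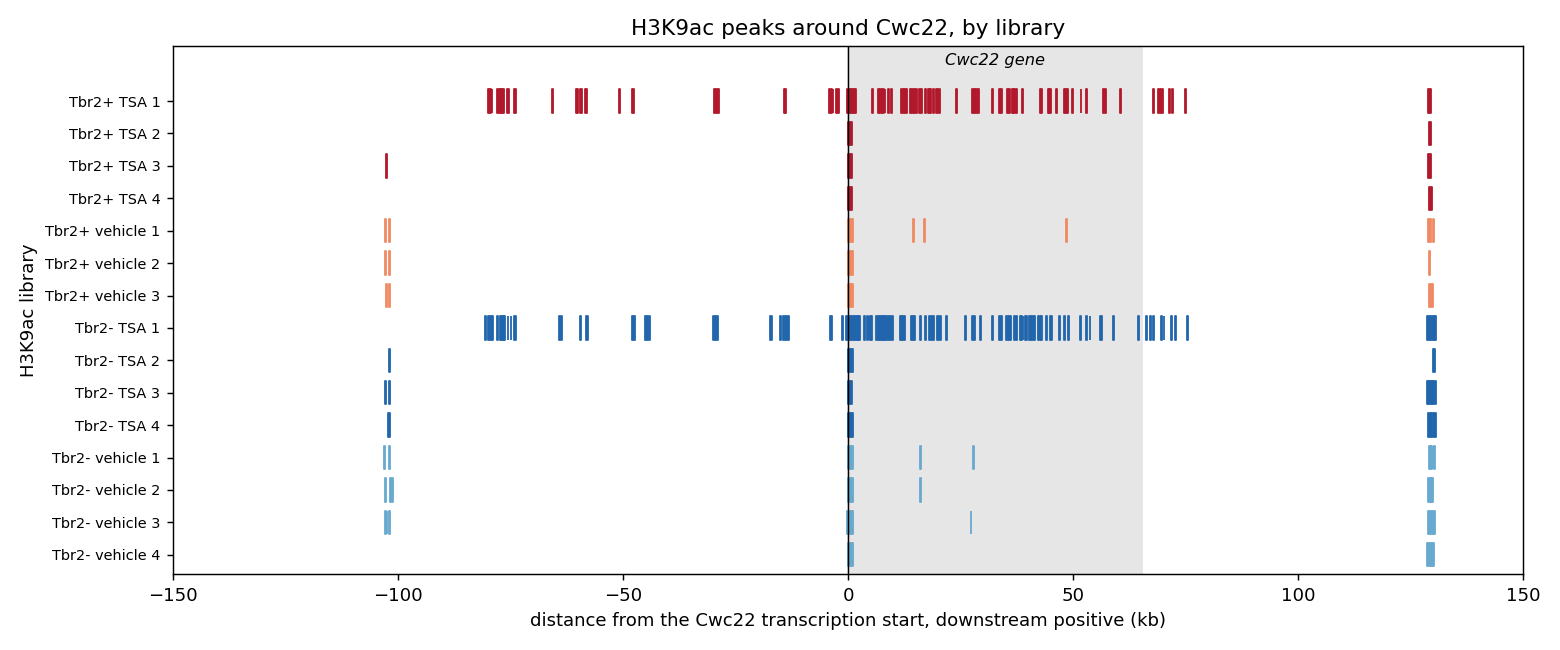
H3K9ac peaks (bars) in each of 15 libraries (rows) against distance from the Cwc22 transcription start in kb, with the gene body shaded and downstream positive. In Tbr2-positive TSA library 1 and Tbr2-negative TSA library 1 peaks run through the gene and beyond both of its ends, while the other 13 libraries have a peak at the start and at most 3 in the body.

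The peaks did not stop at the ends of Cwc22. In windows of 20 kb the excess ran over 180 kb (chr2:77860000-78039999), with 69 peaks over 13.9% of the bases in Tbr2-positive TSA library 1 and 89 peaks over 17% in Tbr2-negative TSA library 1, against 1 to 4 peaks over 0.402% to 0.956% in the other libraries. The edges were drawn from the windows where both of these libraries exceeded every other, so the counts inside them are a description. The windows directly beyond both edges held 0 peaks in both of these libraries. Outside the start these peaks were shallow, with a median enrichment over local background, as the authors' caller gave it, of 4.39-fold and 3.84-fold and a median −log10 q-value of 4.6 and 4.7. Across the genome, 55516 such windows had a peak in any library. Windows were counted that held at least 8 peaks in a library while every library of another number or treatment held at most 3. There were 3 in Tbr2-positive TSA library 1 and 6 in Tbr2-negative TSA library 1, and all of them lay in this segment. By the same count 4 windows were found in Tbr2-negative TSA library 2, 2 in Tbr2-positive vehicle library 1, 1 each in Tbr2-negative vehicle libraries 2 and 3 and 0 in the rest, and none of these lay in the segment. The Cwc22 copy number of these samples was not measured, and its part in the peaks and in the RNA levels was not tested. The labels do not tie RNA library 1 to H3K9ac library 1. In RNA library 1 of the Tbr2-positive and Tbr2-negative TSA groups Cwc22 was at 89.2 and 90.2 CPM. In RNA library 2, the only other library of each group, it was at 120 and 95.3 CPM.

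Near Cwc22 a single gene could be tested. Within 300 kb on either side only Zfp385b, a zinc finger gene downstream of Cwc22, passed the filter, and it had log2 fold changes with TSA of 0.68 in Tbr2-positive (edgeR adjusted p = 0.349) and 0.48 in Tbr2-negative nuclei (0.447). Zfp385b lies outside the segment of excess H3K9ac peaks. Gm13726, inside that segment, was below the filter, with 0 to 22 counts per library. It averaged 0.467 CPM in Tbr2-positive TSA libraries and 0 CPM in every other group. Elsewhere in the genome, the 5 named genes whose log2 levels over the 10 RNA libraries were most like those of Cwc22, among 11986 ranked by Pearson correlation, were Ranbp17 (0.951), Pigb (0.946), Kdm2b (0.938), Ppip5k2 (0.934) and Ankzf1 (0.925). The choice by likeness to Cwc22 over these libraries favours genes lower with TSA, so their levels are a description. Pigb, an enzyme of GPI anchor synthesis, averaged 8.33 CPM with TSA and 28.4 CPM with vehicle in Tbr2-positive nuclei, and 8.74 and 22.5 CPM in Tbr2-negative nuclei. Kdm2b, a histone demethylase that recruits polycomb to CpG islands, averaged 41.7 CPM with TSA and 68.1 CPM with vehicle in Tbr2-positive nuclei, and 37.7 and 64.3 CPM in Tbr2-negative nuclei. Ranked by Spearman correlation, 1 of these 5, Ranbp17, remained among the top 5.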

How the data were processed

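RNA-seq and H3K9ac ChIP-seq values were used as deposited by the authors. The RNA files hold raw read counts per Ensembl gene, deposited by the authors with 1 file per library. The labels name an Illumina TruSeq v2 kit, which does not keep strand, and the submitters' processing notes name SAMtools, MACS2 and mm10, while the aligner and the counting tool are not given in the sources consulted. Per the file headers, peaks were called per library with MACS2 2.1.0.20140616 at a q-value threshold of 0.1 against 1 input library per group, and the peak lists give a −log10 q-value and a fold enrichment for each peak. These are the authors' values and were used only to rank or describe peaks within a library.

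Counts were tested with edgeR 4.0.16 (R 4.3.3): low-count genes removed by filterByExpr, TMM factors, quasi-likelihood F tests with robust fitting on the 10 RNA libraries together, 1 mean per group, and Benjamini-Hochberg adjustment over 20078 genes at 0.05. CPM use TMM-scaled totals and are not scaled by transcript length, so levels of different genes were not compared. The common biological coefficient of variation was 0.374. Replicates differed beyond counting noise (chi-square per degree of freedom 31.8 to 58.8), so no library was counted as a repeat. H3K9ac was tested with Fisher's exact test and exact permutation tests (SciPy 1.17.1), adjusted over 20 comparisons per measure. Gene positions, names and promoters are from RefSeq tables of GRCm38.p6, and body peaks were counted in protein-coding genes of at least 20 kb. The scripts were tested on simulated data with known changes.

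The genes and lists were chosen with earlier results of these data known. Named genes are the 5 genes, Eomes, up to 4 passing members of each list by adjusted p (otherwise the 2 smallest p), and the 5 genes most like Cwc22. Zfp385b and Gm13726 were named after their values were seen. Alternatives were DESeq2 1.42.0, RLE scaling, no filter, a replicate block, each library left out, and for H3K9ac a −log10 q-value of at least 3, a window of 2 kb, the start alone, and an overlap of 200 bases. The input libraries were not analysed here.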

Additional observations from a re-analysis of the deposited data

Results flagged for a closer look

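Values of single libraries were set against the others of their group by Dixon's test in 45 groups of 4 at the 95% level, and 7 were far from the rest. Chance alone gives such values in a small share of groups. That share does not hold for body peaks, because any single peak is flagged where the other libraries held 0. Flags on body peaks are therefore a description. The H3K9ac libraries with number 1 of the TSA groups gave 3 of the 7, all at Cwc22. Tbr2-positive TSA library 1 had 39 peaks inside the Cwc22 body, where the other 3 libraries of the group had 0. Tbr2-negative TSA library 1 had 53 such peaks, where the others had 0, and peaks covered 1617 bases of its Cwc22 gene-end windows, against 998, 1068 and 1081 bases in the others.

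The remaining values were smaller departures. The Eif4a3 gene-end peak ranked at percentile 99.09 in Tbr2-negative TSA library 3, against 98.13 to 98.21 in the others. The Rbm8a gene-end peak ranked at 81.99 in Tbr2-negative vehicle library 4, against 91.52 to 92.74. The Magoh body held 1 peak in Tbr2-negative TSA library 2 and 1 in Tbr2-negative vehicle library 2, where the other libraries of their groups had 0.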

How the results depend on the processing

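Of 350 RNA values of the 5 genes under alternatives, 317 were counted as keeping their direction and side of the threshold. Of the rest, 7 lost a call, 5 gained one and 21 changed sign, none of them a called value. The 317 include the TSA values of Cwc22, which were not tested and have no side of the threshold. Cwc22 was picked for its fall in both populations, so those values say nothing on stability. Its difference of the TSA effects, also counted there, spanned -0.32 to 0.11 with single libraries left out. Of 824 H3K9ac values 27 changed sign, and none could pass under any alternative, so they say nothing on stability. The number of core genes called for TSA in Tbr2-negative nuclei, 1 as reported, was 2 with DESeq2 (Rbm8a joined, DESeq2 adjusted p = 0.0412), 0 with RLE scaling, 0 with the replicate block (Magoh 0.97; edgeR adjusted p = 0.256), and 0 to 1 when single libraries were left out. Between populations with vehicle, 0 as reported, it was 1 with DESeq2, 1 without the filter, 1 with the replicate block (Rbm8a 0.45; edgeR adjusted p = 0.0212), and 0 to 1 with single libraries left out.

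Counts over all genes depended on the tool: for TSA in Tbr2-positive nuclei 0 as reported, 1015 with DESeq2, 364 without the filter and 0 to 39 with single libraries left out; in Tbr2-negative nuclei 236, against 2001, 944 and 0 to 677, and 0 with the replicate block. Tbr2-positive against Tbr2-negative nuclei with TSA gave 1871, 3009 with DESeq2 and 683 to 1953 with single libraries left out. The difference of the TSA effects gave 0, and 11 with DESeq2. The causes were not tested. Same-numbered libraries of the 2 populations correlated at 0.0806 to 0.117 in their deviations from group means, and unlike-numbered ones at -0.117 to -0.0148. The former were not all over 0.1 and no label pairs libraries, so the numbers were not taken as pairs, although each library correlated best with its own number. For TSA against vehicle the replicate block matched same-numbered libraries of a population. Their deviations correlated at -0.0297 to -0.00751, so the block does not show an effect of related libraries there. The transcription start alone could be used for 3 of the 5 genes. Depth was not the limit for Cwc22 RNA, which had at least 2102 counts in every library, while peak lists give no value below the authors' threshold.

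Values near 0 that changed sign spanned these log2 ranges with single libraries left out. With TSA in Tbr2-positive nuclei the range was -0.2 to 0.25 for Casc3, 0 to 0.34 for Rbm8a and -0.18 to 0.15 for Eomes (0.13 with the replicate block). Between populations with TSA it was -0.05 to 0.39 for Cwc22, -0.06 to 0.55 for Eif4a3, -0.49 to 0.01 for Magoh and -0.03 to 0.16 for Rbm8a. With vehicle it was -0.01 to 0.3 for Magoh, -0.08 to 0.11 for Casc3 (0 without the filter) and -0.3 to 0.04 for Magohb. For the difference of the TSA effects it was -0.35 to 0.28 for Eif4a3 (0.01 with DESeq2, 0.01 with RLE scaling, 0 without the filter) and -0.26 to 0.1 for Magohb.

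H3K9ac rank differences that changed sign spanned, with TSA, -3.5 to 1.15 points at Magoh in Tbr2-positive nuclei, and -4.8 to 1.09 at Magoh and -1.39 to 1.73 at Casc3 in Tbr2-negative nuclei. Between populations with vehicle they spanned -1.05 to 3.33 at Rbm8a and -0.963 to 2.65 at Casc3. With a window of 2 kb Rbm8a had 0.387 (TSA, Tbr2-negative) and -0.276 (between populations, vehicle), and covered bases at Cwc22 3.75 (TSA, Tbr2-positive). Covered bases with TSA in Tbr2-negative nuclei spanned -56.2 to 150 at Cwc22 and -18.1 to 42.8 at Magoh, and were -56.2 and -16.8 without TSA library 1 of both populations and -64 and -24 without library 1 of every group. Between populations they spanned -26 to 56.7 at Eif4a3 (vehicle) and -78 to 15.8 at Rbm8a (TSA).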
